A study of Mus musculus with 8 samples.

Results

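Immediate-early genes are genes whose transcription starts within minutes of a signal, without new protein synthesis, and whose mRNAs are short-lived. This account covers 10 of them, chosen by symbol: Fos, Fosb, Jun, Junb, Egr1, Ier2, Dusp1, Atf3, Zfp36 and Klf2. All 10 were matched among the 55421 Ensembl identifiers of the table, and 9 of them passed the filter on low values, 1 TPM in at least 2 libraries, and were tested. Fosb did not pass it.

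The series held 8 poly-A RNA-seq libraries in 4 groups of 2, made from mouse embryos of 9 to 11 somites (E9.25). The groups were homozygous Gcnf mutant (Gcnf-/-) anterior tissue, homozygous Gcnf mutant posterior tissue, wild-type anterior tissue and wild-type posterior tissue. Anterior tissue reached back to pharyngeal arch 1, and posterior tissue began at pharyngeal arch 2. All tissue had been kept in RNAlater for about 10 days before extraction. Mutant libraries carry the numbers 159 and 163 and wild-type libraries the numbers 153 and 156 in both regions. The labels do not say whether an anterior and a posterior library of the same number came from the same embryo, whether libraries held single or pooled embryos, or which part of the Gcnf allele was deleted. The p-values below therefore measure the spread between these libraries, which may be technical.

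Values are TPM, a level corrected for transcript length and scaled so that each library sums to 1000000 transcripts. Differences are mutant minus wild type, or posterior minus anterior, of log2(TPM + 1), with a standard error (SE). This scale understates the change of low genes, so the ratio of the mean TPM is given as well. A gene was called when limma's moderated test, with Benjamini-Hochberg adjustment over 16699 genes, gave an adjusted p under 0.05.

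Depth was 27061601 to 52952690 reads in genes per library. Nr6a1, which encodes Gcnf (germ cell nuclear factor), was at 221 ± 26.7 TPM in mutant and 199 ± 7.81 TPM in wild-type anterior tissue (SD, n = 2 each). In posterior tissue it was at 137 ± 29.6 TPM in mutants and 161 ± 5.48 TPM in wild type, and neither difference passed (limma, Benjamini-Hochberg adjusted p = 0.52 and 0.31). Since the deleted part is not given, this level does not check the labels. The summed level of 10 anterior markers was 30.2 to 46.8 TPM in the 4 posterior libraries and 291 to 462 TPM in the 4 anterior ones, so the tissue markers matched the region labels. The mutant libraries numbered 159 carried Xist at 25.3 and 30.9 TPM, while the mutant libraries numbered 163 and all wild-type libraries carried the Y-linked gene Ddx3y at 26.2 to 39.4 TPM. Sex was therefore unequal between the genotypes.

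The genes of this family stand at the end of mitogen-activated protein kinase (MAPK) and stress-kinase cascades. Kinases activate factors that already sit on the promoters, among them serum response factor, which binds the CArG box, and CREB and ATF proteins, which bind cAMP response elements (CRE). Fos and Jun proteins pair to form the transcription factor AP-1. The mRNAs carry AU-rich elements in the 3′ UTR that mark them for decay, and Zfp36 is a protein that binds such elements. Dissection and dissociation of tissue are known to induce several of these genes, so every library is given below.

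The promoters of 4 members whose levels were higher in all mutant libraries are shown with the elements of this kind that they hold. They run from 250 bases before to 50 bases after the RefSeq transcription start on GRCm38.p6, 5′ to 3′ on the gene's strand. Capitals mark the following motifs: TGACG, the core of a CRE, and TATAAA in Fos; TGACATCA, a match to TGACNTCA, in Jun; a CArG box in Zfp36; and the full CRE, TGACGTCA, in Dusp1.
Fos (chr12:85473640-85473939, plus strand): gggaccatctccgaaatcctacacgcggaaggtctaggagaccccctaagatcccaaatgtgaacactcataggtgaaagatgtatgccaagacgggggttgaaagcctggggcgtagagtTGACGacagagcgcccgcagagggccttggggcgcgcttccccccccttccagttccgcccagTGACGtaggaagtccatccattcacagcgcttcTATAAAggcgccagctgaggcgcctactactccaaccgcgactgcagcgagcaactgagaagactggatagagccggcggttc
Jun (chr4:95052173-95052472, minus strand): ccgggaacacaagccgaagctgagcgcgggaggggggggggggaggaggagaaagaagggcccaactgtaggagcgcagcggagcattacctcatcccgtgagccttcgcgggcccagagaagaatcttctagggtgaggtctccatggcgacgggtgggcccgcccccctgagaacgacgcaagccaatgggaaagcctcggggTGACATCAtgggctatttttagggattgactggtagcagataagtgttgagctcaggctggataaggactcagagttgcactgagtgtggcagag
Zfp36 (chr7:28379179-28379478, minus strand): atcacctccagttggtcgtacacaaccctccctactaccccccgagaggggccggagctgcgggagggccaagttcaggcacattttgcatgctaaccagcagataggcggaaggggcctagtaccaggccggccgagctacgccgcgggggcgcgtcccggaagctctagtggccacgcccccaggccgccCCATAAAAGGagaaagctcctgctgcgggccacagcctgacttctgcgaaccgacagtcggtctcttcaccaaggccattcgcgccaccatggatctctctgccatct
Dusp1 (chr17:26508423-26508722, minus strand): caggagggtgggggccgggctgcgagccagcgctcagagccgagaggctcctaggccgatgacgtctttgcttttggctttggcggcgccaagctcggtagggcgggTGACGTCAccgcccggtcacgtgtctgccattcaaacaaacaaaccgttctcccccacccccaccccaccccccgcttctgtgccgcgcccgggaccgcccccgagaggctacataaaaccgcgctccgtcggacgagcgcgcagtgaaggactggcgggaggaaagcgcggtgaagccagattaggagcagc

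Promoters were found in the RefSeq table for 8 of the 10 members. In Fos the copies of TGACG began 129 and 66 bases before the start and TATAAA began 33 bases before it. In Jun the TGACATCA began 45 bases before the start, in Zfp36 the CArG box 58 bases and in Dusp1 the TGACGTCA 143 bases before it. Dusp1 also holds a TGACG outside its CRE, left in lower case. Both strands were searched, and the copies of TGACG and TGACNTCA within the Dusp1 CRE overlap it. Of all 32851 promoters of this length in the table, 1.63% held a CArG box, 1.79% TGACGTCA, 8.83% TGACNTCA, 13.6% TATAAA and 20.8% TGACG. The other 4 promoters found, of Junb, Klf2, Atf3 and Fosb, each hold TGACG, while those of Jun and Zfp36 do not. It therefore does not set the printed genes apart. GGGCGG, a site of Sp factors, stands in lower case in all 4 printed promoters and was in 35.7% of all promoters, and TGATGNAA, searched for C/EBP and ATF dimers, was in Atf3 alone of the 8 and in 3.97% of all. The AP-1 site TGANTCA was in none of the 8 windows and in 7.81% of all promoters.

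The AU-rich stretch of the 3′ UTR is shown for the same genes, as 30 bases from the GENCODE transcripts on GRCm38 with the pentamer ATTTA in capitals, since such elements shape how long these mRNAs last.
Fos (chr12:85477100-85477129, plus strand): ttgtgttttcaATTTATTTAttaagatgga
Jun (chr4:95049207-95049236, minus strand): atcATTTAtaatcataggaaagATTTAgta
Dusp1 (chr17:26506157-26506186, minus strand): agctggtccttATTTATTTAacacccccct
Zfp36 (chr7:28376958-28376987, minus strand): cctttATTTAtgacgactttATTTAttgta
Copies of ATTTA in the whole 3′ UTR numbered 4 in Fos, Jun and Dusp1, 3 in Zfp36 and Atf3, 2 in Junb and Egr1, and 1 in Fosb and Klf2. Ier2 held 0 copies. Of 20354 genes with a 3′ UTR, 62.5% held at least 1 copy.

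The levels of the 10 genes spanned more than 3 orders of magnitude, and their order was much the same in every library. Ier2, a small nuclear early-response protein, was the highest and Jun the next in all 8 libraries. Dusp1 and Atf3 held the next ranks in 7 of the 8 libraries, and in wild-type anterior library 156 Junb, at 10.8 TPM, stood just above Atf3, at 10.1 TPM. Fos was the ninth and Fosb the tenth in every library. The order of Junb, Zfp36, Egr1 and Klf2 changed between libraries. On mm10 Fosb and Zfp36 lie on chromosome 7 and Junb, Ier2 and Klf2 on chromosome 8, and the others lie on a chromosome each.

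**Figure D1:**
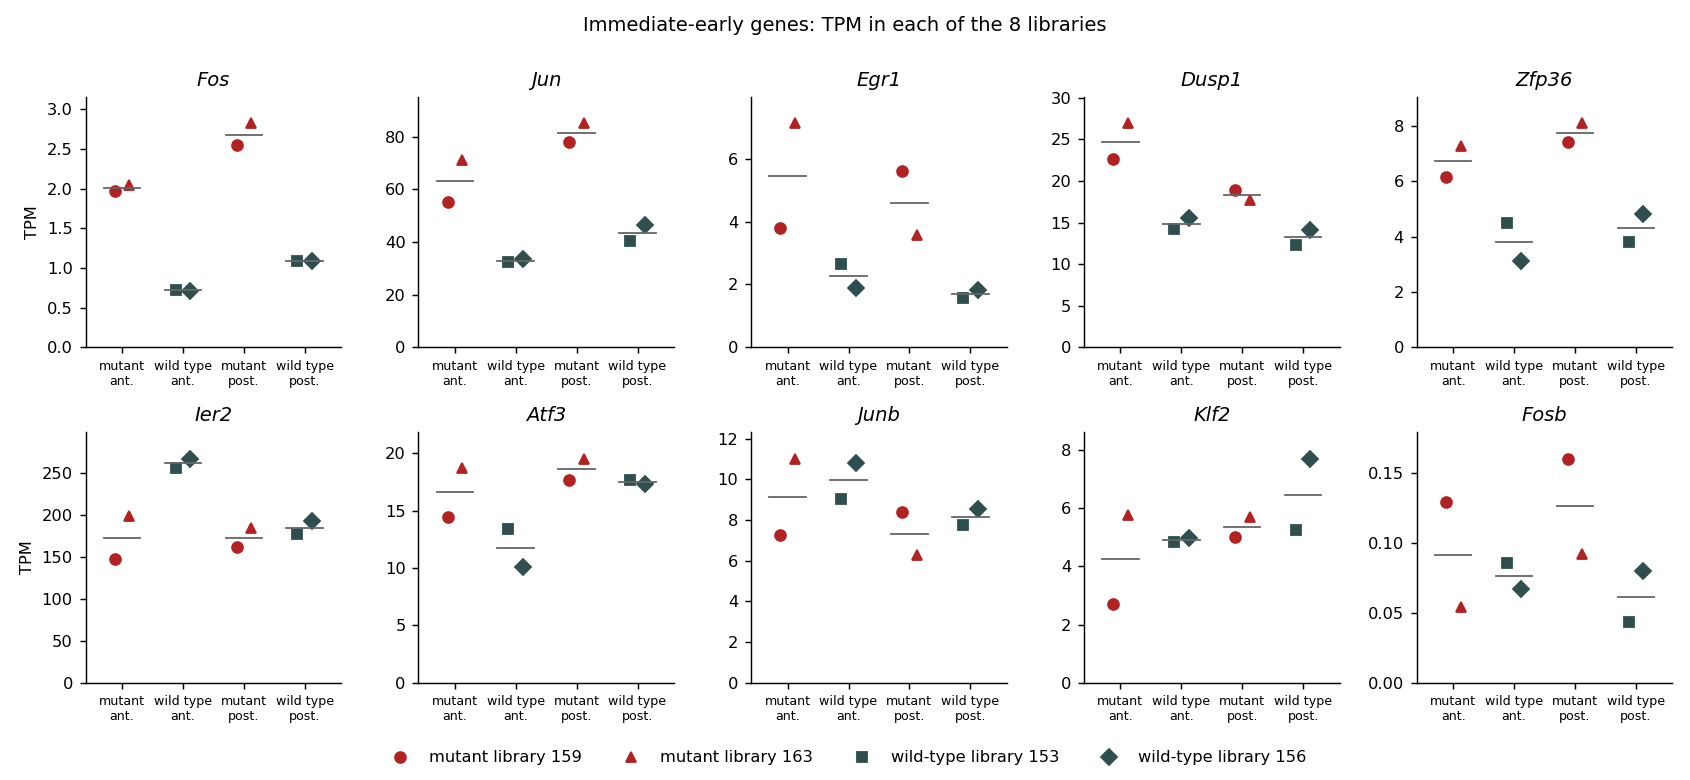
TPM of each gene (vertical axes, each from 0) in the 8 libraries; points are single libraries, grey bars are means of 2 libraries, and groups run mutant then wild type for anterior and for posterior tissue. For Fos, Jun, Egr1, Dusp1 and Zfp36 all 4 mutant points lie above all 4 wild-type points; Ier2 is lower in the mutant in anterior tissue.

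In anterior tissue 5 of the 9 tested genes rose in the mutant and 1 fell. The genes that rose were Fos, Jun, Egr1, Dusp1 and Zfp36, at 1.67 to 2.8 times the wild-type mean, and the gene that fell was Ier2. Of all 16699 genes tested in that comparison 23.6% were called, 13.3% higher and 10.2% lower in the mutant. In posterior tissue Fos, Jun, Egr1 and Zfp36 rose, at 1.8 to 2.71 times the wild-type mean, and no member fell. There 11.5% of all genes were called, 8.56% higher and 2.93% lower. The 4 genes called in posterior tissue were among the 5 called higher in anterior tissue, and 5.67% of all genes were called higher in both. Without regard to the test, 6 of the 9 genes were higher and 1 lower in both mutant libraries than in both wild-type libraries in anterior tissue, as were 35.1% and 32.3% of all genes. In posterior tissue the counts were 6 and 0, against 33.4% and 19.8% of all genes. For Fos, Jun, Egr1, Dusp1 and Zfp36 every mutant library lay above every wild-type library of either region, as for 14.0% of all genes. Dissected tissue is a mixture of cells, so more cells of a type that carries a transcript and more transcript per cell cannot be told apart.

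Fos, the AP-1 subunit that pairs with Jun proteins, was a low transcript in all 8 libraries. It was at 1.97 and 2.05 TPM in mutant anterior libraries 159 and 163 (46 and 43 reads), against 0.725 and 0.71 TPM in wild-type anterior libraries 153 and 156 (16 reads each). Mutant posterior libraries 159 and 163 had 2.55 and 2.82 TPM (90 and 58 reads), against 1.09 TPM in both wild-type posterior libraries (19 and 36 reads). The 4 groups did not overlap, in the order mutant posterior, mutant anterior, wild-type posterior and wild-type anterior. The difference was 0.81 ± 0.17 (SE) in anterior tissue, a ratio of 2.8, and 0.82 ± 0.17 in posterior tissue, a ratio of 2.47, and both passed (limma, Benjamini-Hochberg adjusted p = 0.0094 and 0.017). Reads summed over the 2 libraries of a group gave exact 95% Poisson intervals, for counting error only, of 1.61 to 2.47 TPM in mutant and 0.491 to 1.01 TPM in wild-type anterior tissue. The intervals were 2.24 to 3.11 TPM in mutant and 0.819 to 1.42 TPM in wild-type posterior tissue, so the intervals of the genotypes did not overlap in either region. Leaving out wild-type anterior library 153 or 156 ended the anterior call (adjusted p = 0.062 and 0.058), and leaving out mutant posterior library 163 (0.065) or wild-type posterior library 153 (0.097) or 156 (0.076) ended the posterior call; the difference stayed between 0.76 and 0.87 with any single library left out.

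Fosb, the closest relative of Fos, was near the floor of detection. It had 8 and 3 reads in mutant anterior libraries 159 and 163 and 15 and 5 reads in mutant posterior libraries 159 and 163. Wild-type libraries 153 and 156 had 5 and 4 reads in anterior tissue and 2 and 7 reads in posterior tissue. In posterior tissue this came to 0.16 and 0.0917 TPM in mutants, against 0.0431 and 0.0797 TPM in wild type, without overlap and at a ratio of 2.05. Anterior levels were 0.129 and 0.0539 TPM in mutants and 0.0854 and 0.0669 TPM in wild type, and overlapped. The pooled Poisson intervals overlapped in both regions, at 0.0466 to 0.167 TPM in mutant and 0.0348 to 0.144 TPM in wild-type anterior tissue, and at 0.0823 to 0.208 TPM in mutant and 0.0307 to 0.127 TPM in wild-type posterior tissue. Overlap of separate intervals does not decide whether Fosb differed, and no test of its difference was run at these low counts.

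Jun, the partner of Fos in AP-1, rose in both regions. Mutant anterior libraries 159 and 163 had 55.0 and 71.1 TPM, against 32.4 and 33.4 TPM in wild-type anterior libraries 153 and 156. Mutant posterior libraries 159 and 163 had 78.1 and 85.0 TPM, against 40.2 and 46.5 TPM in wild-type posterior libraries 153 and 156. Again the 4 groups did not overlap, and their order was that of Fos. The difference was 0.91 ± 0.13 in anterior tissue, a ratio of 1.92, and 0.90 ± 0.13 in posterior tissue, a ratio of 1.88 (limma, Benjamini-Hochberg adjusted p = 0.0024 and 0.0047). The anterior call held with each single library left out (adjusted p of 0.0025 to 0.022), and the posterior call was lost without wild-type posterior library 153 alone (0.79 ± 0.16, adjusted p = 0.063). Jun overlaps the antisense gene Junos over 689 bases, and the libraries do not mark strand, so reads of the 2 genes cannot be told apart there.

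Junb, a second Jun-type AP-1 subunit, was called in neither region. It was at 7.26 and 11.0 TPM in mutant anterior libraries 159 and 163, against 9.03 and 10.8 TPM in wild-type anterior libraries 153 and 156. Posterior levels were 8.39 TPM in mutant 159 and 6.27 TPM in mutant 163, against 7.77 TPM in wild-type 153 and 8.53 TPM in wild-type 156. Mutant and wild-type libraries overlapped in both regions. The difference was -0.13 ± 0.20 in anterior and -0.15 ± 0.20 in posterior tissue, and neither passed (limma, Benjamini-Hochberg adjusted p = 0.69 in both). Junb overlaps Prdx2, a gene on the other strand, over 351 bases, and unstranded reads of the pair cannot be told apart there. Leaving out mutant anterior library 159 turned the sign to 0.14, and leaving out mutant posterior library 163 turned it to 0.04.

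Egr1, a zinc-finger transcription factor induced through serum response factor, had the largest ratio of the posterior comparison and the largest standard errors of the 9 genes. It was at 3.79 and 7.12 TPM in mutant anterior libraries 159 and 163, against 2.64 and 1.89 TPM in wild-type anterior libraries 153 and 156. Posterior tissue had 5.61 TPM in mutant 159 and 3.57 TPM in mutant 163, against 1.56 TPM in wild-type 153 and 1.82 TPM in wild-type 156. All mutant libraries were higher than all wild-type ones, but the mutant libraries of a group differed by 0.76 in anterior and 0.53 in posterior tissue on the log2 scale. The difference was 0.95 ± 0.28 in anterior tissue, a ratio of 2.41, and 1.03 ± 0.28 in posterior tissue, a ratio of 2.71 (limma, Benjamini-Hochberg adjusted p = 0.039 and 0.046). Both calls were close to the threshold. The anterior one was lost in 5 of 8 fits that left out 1 library, with an adjusted p of 0.22 and a difference of 0.56 without mutant anterior library 163, 0.077 and 0.18 without wild-type anterior library 153 or 156, and 0.071 without wild-type posterior library 153 or 156. The posterior one was also lost in 5 of 8, with an adjusted p of 0.16 and a difference of 0.77 without mutant posterior library 159, 0.23 or 0.14 when wild-type posterior library 153 or 156 was left out, and 0.056 and 0.055 without wild-type anterior library 153 or 156.

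Zfp36, also called tristetraprolin, binds AU-rich elements and promotes the decay of the mRNAs that carry them. It was at 6.14 and 7.27 TPM in mutant anterior libraries 159 and 163, against 4.49 and 3.13 TPM in wild-type anterior libraries 153 and 156. Posterior levels were 7.42 TPM in mutant 159 and 8.08 TPM in mutant 163, against 3.8 TPM in wild-type 153 and 4.8 TPM in wild-type 156. The mutant libraries were all above the wild-type libraries, and the wild-type regions overlapped each other. The difference was 0.69 ± 0.18 in anterior tissue, a ratio of 1.76, and 0.73 ± 0.18 in posterior tissue, a ratio of 1.8 (limma, Benjamini-Hochberg adjusted p = 0.025 and 0.036). Leaving out mutant anterior library 159 or 163 (adjusted p = 0.053 and 0.14) or wild-type anterior library 156 (0.17) ended the anterior call. The posterior call was lost without any 1 of the 4 posterior libraries, mutant 159 and 163 (0.07 and 0.12) and wild type 153 and 156 (0.21 and 0.081). Zfp36 overlaps the antisense gene Gm44710 over 1274 bases, and strand was not marked.

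Dusp1 encodes a phosphatase that removes phosphate from MAP kinases and so ends the signal that induces it. It was at 22.6 and 26.9 TPM in mutant anterior libraries 159 and 163, against 14.2 and 15.5 TPM in wild-type anterior libraries 153 and 156. Posterior tissue had 18.9 TPM in mutant 159 and 17.7 TPM in mutant 163, against 12.3 TPM in wild-type 153 and 14.1 TPM in wild-type 156. The groups did not overlap, and unlike Fos and Jun the anterior group of each genotype was the higher. The anterior difference was 0.70 ± 0.13, a ratio of 1.67, and passed (limma, Benjamini-Hochberg adjusted p = 0.0057). The posterior difference was 0.44 ± 0.13, a ratio of 1.38, and missed the threshold (adjusted p = 0.057). The anterior call was lost without wild-type anterior library 153 (adjusted p = 0.055), while the posterior difference passed when TPM was rescaled without globin, mitochondrial and Mir6236 transcripts (0.047). The annotated span of Dusp1 overlaps Ergic1 (640 bases) and Gm8225 (956) on the other strand, and AC122252.1 (1853) and AC122252.4 (227) on its own strand. The overlaps given here and for Jun, Junb and Zfp36 are of whole gene spans, introns included. Overlap of exons was not measured, and where exons do overlap, reads of the genes cannot be told apart.

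Atf3, a stress-induced member of the ATF and CREB family, was at 14.4 and 18.7 TPM in mutant anterior libraries 159 and 163, against 13.4 and 10.1 TPM in wild-type anterior libraries 153 and 156. Posterior levels were 17.7 TPM in mutant 159 and 19.5 TPM in mutant 163, against 17.7 TPM in wild-type 153 and 17.3 TPM in wild-type 156. Wild-type anterior tissue was the lowest group. Mutant anterior tissue overlapped both posterior groups, and the posterior mutant libraries lay above the wild-type ones by a margin lost in rounding. The anterior difference of 0.46 ± 0.16, a ratio of 1.41, missed the threshold (limma, Benjamini-Hochberg adjusted p = 0.068), and the posterior one was 0.08 ± 0.16 (adjusted p = 0.79). Rescaled without globin, mitochondrial and Mir6236 transcripts, the anterior difference was 0.51 and passed (adjusted p = 0.042), while it was 0.28 (0.37) and 0.29 (0.34) with wild-type anterior 156 or mutant anterior 163 left out.

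Ier2, the highest of the 10 genes, fell in mutant anterior tissue. It was at 148 and 199 TPM in mutant anterior libraries 159 and 163, against 256 and 267 TPM in wild-type anterior libraries 153 and 156. Posterior tissue had 162 TPM in mutant 159 and 184 TPM in mutant 163, against 178 TPM in wild-type 153 and 193 TPM in wild-type 156. Wild-type anterior tissue stood above all other libraries, and the posterior genotypes overlapped. The anterior difference was -0.61 ± 0.14, a ratio of 0.663 (limma, Benjamini-Hochberg adjusted p = 0.015), and the posterior one -0.10 ± 0.14 (adjusted p = 0.70). The anterior call was lost without mutant anterior library 159, where the difference was -0.40 (adjusted p = 0.069), and without wild-type anterior library 153 (0.07) or 156 (0.086).

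Klf2, a Krüppel-like factor known from endothelium, where flow induces it, was at 2.72 and 5.76 TPM in mutant anterior libraries 159 and 163, against 4.85 and 4.97 TPM in wild-type anterior libraries 153 and 156. Posterior levels were 5.01 TPM in mutant 159 and 5.7 TPM in mutant 163, against 5.24 TPM in wild-type 153 and 7.7 TPM in wild-type 156. Genotypes overlapped in both regions, and the low value of library 159 set the anterior mean. The difference was -0.24 ± 0.27 in anterior and -0.22 ± 0.27 in posterior tissue (limma, Benjamini-Hochberg adjusted p = 0.57 and 0.66). Leaving out mutant anterior library 159 turned the sign to 0.19, and leaving out wild-type posterior library 156 turned it to 0.02. The summed level of 10 endothelial markers was 332 to 430 TPM in mutant and 283 to 327 TPM in wild-type anterior tissue. In posterior tissue it was 542 to 585 TPM in mutant and 366 to 371 TPM in wild type. Of the 10, 2 were called higher, Cldn5 and Pecam1, in both regions. Among all genes 13.3% were called higher in anterior and 8.56% in posterior tissue. The median difference of the 10 was 0.08 in anterior and 0.45 in posterior tissue. Emcn (-0.49) and Tek (-0.33) were lower in mutant anterior tissue without being called. Cdh5 (0.57) and Esam (0.53) were higher in mutant posterior tissue without being called. The part of endothelial cells in the Klf2 values was not tested.

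**Figure D2:**
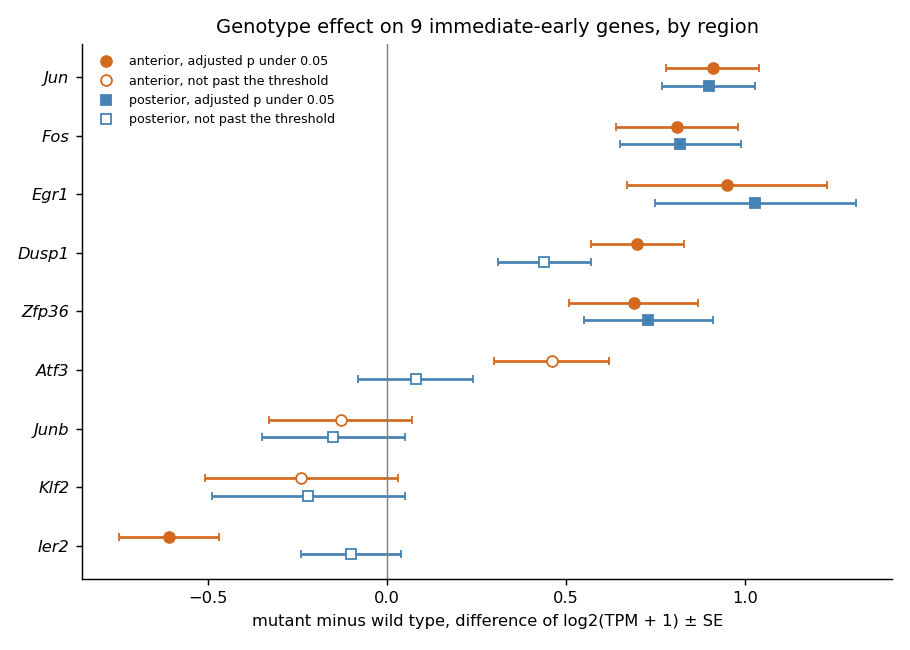
Mutant minus wild type in log2(TPM + 1) with its standard error for the 9 tested genes (circles anterior, squares posterior); filled symbols passed an adjusted p of 0.05. Jun, Fos, Egr1 and Zfp36 have filled symbols in both regions on the right, at 0.69 to 1.03, and the anterior symbol of Ier2 stands on the left at -0.61.

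The test of whether the genotype effect differed between the regions called none of the 9 genes, against 1.01% of all genes (limma): 0.413% with the higher and 0.599% with the lower effect in anterior tissue. Ier2 had the smallest p of the 9 genes. Its anterior effect minus its posterior effect was -0.51 ± 0.20 (limma, unadjusted p = 0.03, Benjamini-Hochberg adjusted p = 0.33). It was -0.30 without mutant anterior library 159 and -0.72 without mutant anterior library 163 (adjusted p = 0.57 and 0.14). The fall of Ier2 is thus not shown to differ between regions after adjustment.

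Between regions, none of the 9 genes was called in the mutant and 1 in wild type. Of all genes 16.1% were called in the mutant (8.01% higher and 8.1% lower in posterior tissue) and 14.5% in wild type (7.86% higher and 6.65% lower). Ier2 fell in posterior wild-type tissue, to a mean of 185 ± 10.6 TPM, against 262 ± 7.76 TPM in anterior wild-type tissue (SD, n = 2 each). The difference was -0.50 ± 0.14 (limma, Benjamini-Hochberg adjusted p = 0.045), and the call was lost without any 1 of the 4 wild-type libraries (adjusted p of 0.14 to 0.22). It was also lost under median-of-ratios scaling (-0.41, adjusted p = 0.091) and quantile normalization (-0.36, 0.13). Atf3 averaged 17.5 ± 0.274 TPM in posterior and 11.7 ± 2.29 TPM in anterior wild-type tissue, and its difference of 0.55 ± 0.16 missed the threshold (adjusted p = 0.053) but passed in 9 of the alternatives, 3 of them with 1 library left out: mutant anterior 159 or 163 (0.046 and 0.047) or wild-type anterior 153 (0.042). Without wild-type anterior library 156 it was 0.37 (adjusted p = 0.33). Jun was higher by 0.38 ± 0.13 in posterior tissue of both genotypes, without passing (adjusted p = 0.10 in mutants and 0.096 in wild type). Without mutant anterior library 163 the mutant difference of Jun was 0.56 and passed (adjusted p = 0.039), and without mutant anterior library 159 it was 0.19 (0.44). Dusp1 differed by -0.41 ± 0.13 in the mutant, posterior minus anterior, without passing (adjusted p = 0.061). Before adjustment, the p of the mutant comparison was 0.022 for Jun and 0.011 for Dusp1 (limma).

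Libraries of the same group differed, and for the 9 genes the mutant anterior pair had the widest median gap; over all genes the mutant posterior pair did. All 9 tested genes were higher in mutant anterior library 163 than in 159, where 61.9% of all genes were. The median size of the gap was 0.36 in log2(TPM + 1) for the 9 genes and 0.15 for all genes. Klf2 had the widest gap, 0.86, which 2.91% of genes exceeded, followed by Egr1 at 0.76 (3.96%) and Junb at 0.54 (8.35%). In the mutant posterior pair 6 genes were higher in 163 and 3 in 159, with a median gap of 0.13 against 0.18 for all genes, and the widest was Egr1 at 0.53. The gap of Egr1 therefore ran in opposite directions in the anterior and posterior libraries of these numbers.

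In wild-type anterior tissue 5 genes were higher in 156 and 4 in 153, with a median gap of 0.12 against 0.1 for all genes, and Zfp36 had the widest, 0.41. In wild-type posterior tissue 7 genes were higher in 156 and 1 in 153, with Fos equal at 1.09 TPM, while 25.2% of all genes were higher in 156, with a median gap of 0.14 against 0.16 for all genes, and Klf2 had the widest, 0.48. Fos differed by at most 0.11 within a group. Averaged over the 9 genes, each centred on its own mean over the 8 libraries, the level was -0.04 and 0.38 in mutant anterior libraries 159 and 163 and 0.24 and 0.21 in mutant posterior libraries 159 and 163. It was -0.19 and -0.26 in wild-type anterior libraries 153 and 156 and -0.25 and -0.09 in wild-type posterior libraries 153 and 156.

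**Figure D3:**
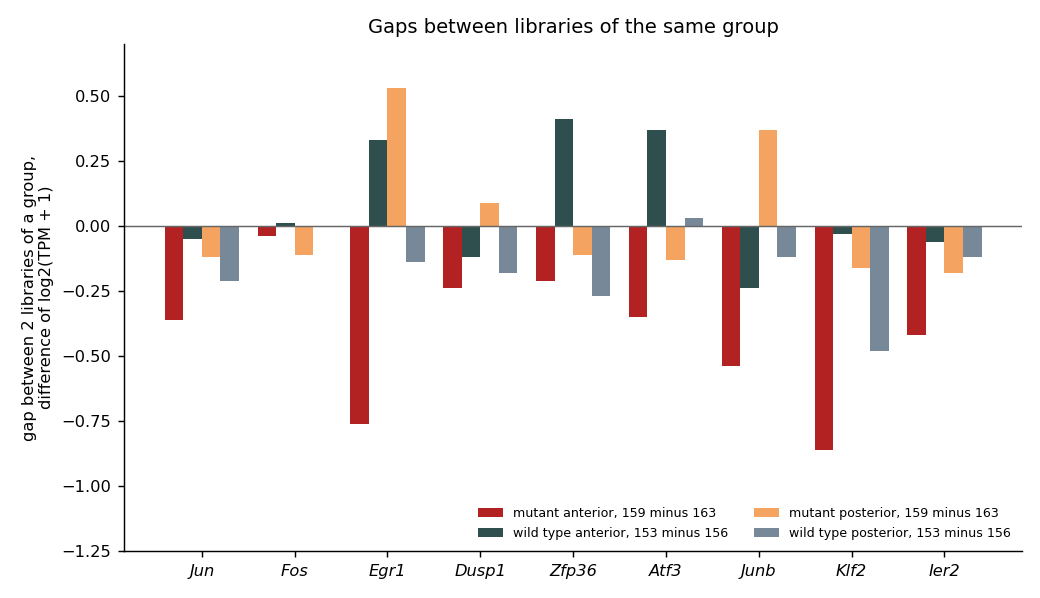
Gap between the 2 libraries of each group in log2(TPM + 1), first library number minus second, for the 9 tested genes; bars below 0 mean a higher level in library 163 or 156. Mutant anterior bars (dark red) all point down, with Klf2 and Egr1 the longest, at sizes of 0.86 and 0.76.

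Other measures moved with the genotypes and between the libraries. The summed level of the 9 matched primitive erythroid markers was 25400 to 43800 TPM in mutant and 4240 to 9910 TPM in wild-type anterior tissue, and 22100 to 44000 TPM in mutant and 6350 to 7600 TPM in wild-type posterior tissue. With globin, mitochondrial and Mir6236 transcripts taken out of the total, 7 of the 9 genes were called in anterior tissue and 5 in posterior tissue, where 4280 and 2279 of all 16664 genes were called, against 3937 and 1919 before. The summed level of 10 macrophage and megakaryocyte markers was 5.57 to 16.5 TPM in mutant and 2.42 to 2.69 TPM in wild-type anterior tissue. In posterior tissue it was 27.1 to 27.2 TPM in mutant and 5.03 to 5.29 TPM in wild type, with C1qb at 0 throughout. Only 4 of the 10 passed the filter, Pf4, Itga2b, Gp9 and Fcer1g, and the macrophage markers Csf1r, Ptprc, Cx3cr1, Tyrobp and C1qa did not. Pf4 alone was at 2.79 and 11.0 TPM in mutant anterior and 16.1 and 18.6 TPM in mutant posterior libraries. In wild type it was at most 0.559 TPM. Heart markers summed to 149 to 459 TPM in mutant and 45.7 to 177 TPM in wild-type anterior tissue, and to 486 to 3680 TPM in mutant and 537 to 1630 TPM in wild-type posterior tissue. Visceral endoderm markers summed to 18.1 to 26.3 TPM in mutant and 24.2 to 155 TPM in wild-type anterior tissue, and to 236 to 1130 TPM in mutant and 2120 to 2550 TPM in wild-type posterior tissue. The part of these cells in the values of the immediate-early genes was not tested.

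Of 45 other immediate-early genes 42 were tested. In anterior tissue 11 rose and 8 fell in the mutant, with a median difference of 0.06 against 0.02 for all genes, and in posterior tissue 11 rose and 3 fell, with a median of 0.31 against 0.05. Among all genes tested, 13.3% were called higher and 10.2% lower in anterior tissue, and 8.56% higher and 2.93% lower in posterior tissue. The genes that rose in both regions were Btg1, Gadd45g, Ier3, Plk2, Plk3, Ppp1r15a, Socs3 and Tnfaip3. Ier3, an early-response gene of cell survival, averaged 52.3 ± 7.04 TPM in mutant and 3.77 ± 0.405 TPM in wild-type anterior tissue, and 44.4 ± 12.1 TPM in mutant and 3.22 ± 0.518 TPM in wild-type posterior tissue (SD, n = 2 each). Its differences, 3.48 ± 0.19 and 3.41 ± 0.19, exceeded those of all 9 members (limma, Benjamini-Hochberg adjusted p = 3.4e-05 and 6.8e-05). Plk3, a stress-response kinase, differed by 2.20 ± 0.17 in anterior and 2.02 ± 0.17 in posterior tissue, and Gadd45g, a growth-arrest gene, by 1.99 ± 0.21 and 1.36 ± 0.21.

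Hes1, Id1, Myc, Nr4a1, Nr4a3, Phlda1 and Sik1 were called lower in anterior tissue and not called in posterior tissue, where Id1 (0.48), Myc (0.18) and Hes1 (0.14) had differences of the opposite sign. Arc was called lower in both, and Klf10 and Trib1 were called lower in posterior tissue only, with anterior differences of -0.17 and -0.26. The test of the difference between regions called 2 genes of the list, against 1.01% of all genes. Myc, the growth regulator, was at 79.5 ± 1.79 TPM in mutant and 156 ± 9.43 TPM in wild-type anterior tissue, and its anterior effect minus its posterior effect was -1.14 ± 0.13 (limma, Benjamini-Hochberg adjusted p = 0.0075). Pim1, a kinase, was at 73.8 ± 1.47 TPM in mutant and 36.5 ± 2.14 TPM in wild-type posterior tissue, and the same contrast gave -0.89 ± 0.15 (adjusted p = 0.038). Sgk1 and Klf4 were called higher in posterior tissue and not called in anterior tissue, where their differences were -0.60 and 0.58. Egr2, named after its values were seen because it lies apart in the plot of both regions, differed by 0.03 in anterior and -2.30 in posterior tissue without being called.

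**Figure D4:**
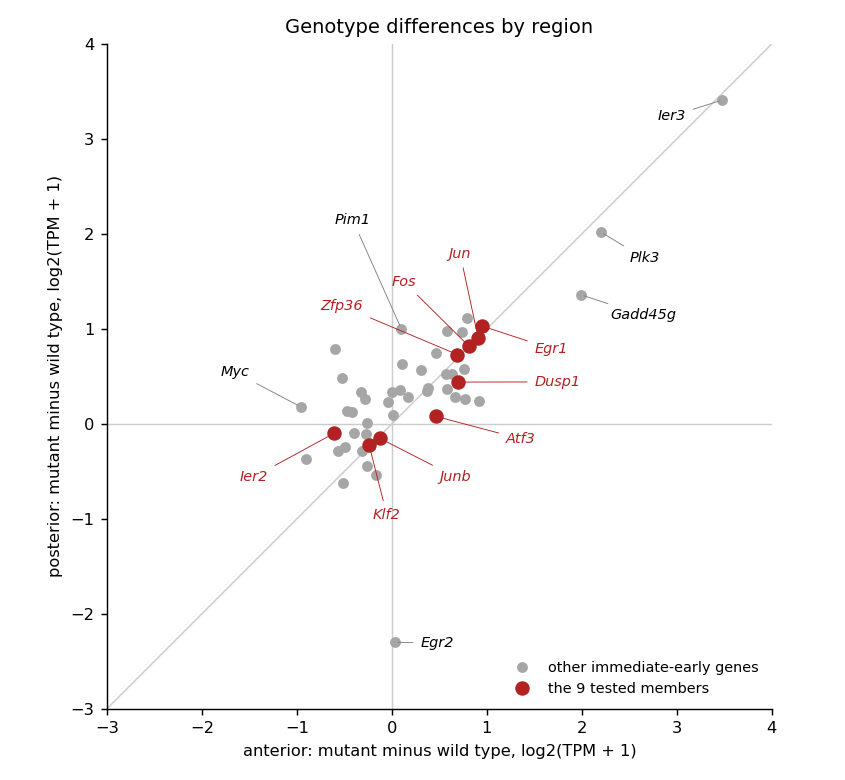
Genotype difference in anterior (horizontal) and posterior tissue (vertical), both mutant minus wild type in log2(TPM + 1), for the 9 tested genes (red) and 42 other immediate-early genes (grey); the diagonal marks equal differences. Jun, Fos, Egr1 and Zfp36 lie near the diagonal at 0.69 to 1.03, and Ier3 lies beyond them at 3.48 and 3.41.

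Among 12 tested AP-1 subunits and dimer partners outside the 10 genes, 1 rose and 2 fell in mutant anterior tissue and 1 rose in mutant posterior tissue. The shares of all genes called in either direction were 23.6% in anterior and 11.5% in posterior tissue. Jund, the remaining Jun protein, rose in both regions, to 98.3 ± 30.3 TPM in mutant against 52.0 ± 0.693 TPM in wild-type anterior tissue and to 105 ± 6.97 TPM in mutant against 50.1 ± 8.74 TPM in wild-type posterior tissue. Its differences were 0.87 ± 0.19 and 1.06 ± 0.19 (limma, Benjamini-Hochberg adjusted p = 0.013 and 0.012). Batf and Batf3, which pair with Jun proteins, fell in anterior tissue, with differences of -0.65 ± 0.15 and -0.79 ± 0.21 (adjusted p = 0.017 and 0.025). Fosl2, a Fos-related subunit, was at 3.39 ± 0.793 TPM in mutant and 2.02 ± 0.107 TPM in wild-type anterior tissue and missed the threshold (adjusted p = 0.051).

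Of 16 other MAPK phosphatases and feedback inhibitors of Erk, 4 rose and 8 fell in mutant anterior tissue, and 2 rose and 3 fell in mutant posterior tissue. Dusp9, an Erk phosphatase, rose in both regions, to 413 ± 19.7 TPM in mutant against 104 ± 1.34 TPM in wild-type anterior tissue and to 544 ± 65.2 TPM in mutant against 249 ± 31.8 TPM in wild-type posterior tissue (limma, Benjamini-Hochberg adjusted p = 4.7e-05 and 0.0011). Dusp5 and Spry2, both negative feedback genes of the Erk pathway, fell in anterior tissue, with differences of -0.85 ± 0.13 and -0.61 ± 0.10 (adjusted p = 0.0027 and 0.0031). Dusp4 fell in posterior tissue, with a difference of -0.59 ± 0.10 (0.0091). In anterior tissue Dusp4 was lower in the mutant too, at 89.1 and 87.8 TPM in mutant libraries 159 and 163. Wild-type anterior libraries 153 and 156 had 123 and 120 TPM. Of 22 upstream kinases and SRF, TCF and CREB factors, 2 rose and 3 fell in anterior tissue and 1 fell in posterior tissue. The shares of all genes to set beside the counts of both lists were 23.6% called in anterior and 11.5% in posterior tissue. Srf itself was in neither group.

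Stress-response genes moved in both directions. For comparison, 13.3% of all genes were called higher and 10.2% lower in mutant anterior tissue, and 8.56% higher and 2.93% lower in mutant posterior tissue. Of 13 tested targets of Atf4 and Chop, factors of the integrated stress response, which also induces Atf3, 7 rose and none fell in mutant anterior tissue, and 6 rose and none fell in mutant posterior tissue. Trib3 averaged 51.9 ± 5.69 TPM in mutant and 4.35 ± 1.9 TPM in wild-type anterior tissue (difference 3.35 ± 0.34), and Ddit3, which encodes Chop, averaged 21.7 ± 3.89 TPM in mutant and 9.14 ± 0.167 TPM in wild-type anterior tissue (1.15 ± 0.14). Of 15 heat shock genes 1 rose and 7 fell in anterior tissue, and 1 rose and 3 fell in posterior tissue. The gene that rose in posterior tissue was Hspb1, at 26.6 ± 8.61 TPM in mutant and 6.67 ± 6.48 TPM in wild type. Its difference there was 2.13 ± 0.56 (limma, Benjamini-Hochberg adjusted p = 0.043). In anterior tissue Hspb1 was at 10.0 and 12.2 TPM in mutants, against 0.517 and 1.72 TPM in wild type. Hsph1, Hspa8 and Hspd1, chaperones present without stress, fell in both regions, with differences of -1.10 ± 0.09, -0.98 ± 0.09 and -0.86 ± 0.10 in anterior tissue (limma, Benjamini-Hochberg adjusted p = 0.00019, 0.00035 and 0.00093). The inducible gene Hspa1a, named after its values were seen, was at 4.17 and 2.11 TPM in the anterior and posterior mutant libraries numbered 159. It was at 0.264 and 0.193 TPM in those numbered 163 and at 0.0906 to 0.216 TPM in wild type. Reads of Hspa1a and its near-identical neighbour Hspa1b cannot be told apart with certainty, and Hspa1b had 10.1 and 4.82 TPM in the libraries numbered 159 and 0.959 to 1.86 TPM in the other 6. The libraries numbered 159 were thus the highest for Hspa1a and Hspa1b. Of the 9 tested immediate-early genes, all 9 were lower in 159 than in 163 in mutant anterior tissue, and 6 were lower and 3 higher in mutant posterior tissue. A link between the 2 sets of values was not tested.

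Of 15 tested Krüppel-like factors related to Klf2, 7 rose and none fell in mutant anterior tissue, and 4 rose and 1 fell in mutant posterior tissue. The counts of this paragraph stand beside 13.3% of all genes called higher and 10.2% lower in anterior tissue. In posterior tissue these shares were 8.56% and 2.93%. Klf5 averaged 6.48 ± 0.682 TPM in mutant and 1.98 ± 0.101 TPM in wild-type anterior tissue, higher by 1.33 ± 0.15 (limma, Benjamini-Hochberg adjusted p = 0.00063). Of 13 genes linked to the sensing of flow or the response to it in endothelium, 1 fell in mutant anterior tissue, Ccm2. In mutant posterior tissue 3 rose, Thbd, Klf4 and Edn1. Which cells these transcripts came from was not tested. A further list of 10 genes held relatives of Zfp36, other proteins that bind AU-rich elements, and the mRNA decay factors Cnot1 and Cnot7. Of these, Zfp36l2 rose by 0.43 ± 0.13 and Elavl1 fell by 0.37 on the log2 scale in anterior tissue (limma, Benjamini-Hochberg adjusted p = 0.043 and 0.017). None of the 10 was called in posterior tissue.

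Likeness between genes was measured as the root mean square difference of log2(TPM + 1) values, each centred on its own mean over the 8 libraries, against 10585 genes with a mean of at least 5 TPM. The genes nearest to Fos were Plpp3 (0.071), Pura (0.081), Trmt2b (0.083), Commd3 (0.084) and Gpx8 (0.093), where the median gene was at 0.489. Fos averaged 1.62 TPM, a level at which this scale understates changes, so a near gene need not share its ratio of TPM. Among the members Jun was nearest to Fos, at 0.117, then Zfp36 at 0.15, Atf3 at 0.314, Dusp1 at 0.329 and Egr1 at 0.374. Klf2, Junb and Ier2, at 0.572, 0.58 and 0.66, were farther from Fos than the median gene. Genes near to the mean of the 9 members included Pgap3 (0.052), BC017158 (0.064), Mef2d (0.069) and Tbc1d17 (0.074), where the median gene was at 0.307. Of the members themselves, Junb (0.333), Klf2 (0.368), Egr1 (0.37) and Ier2 (0.426) were farther from this mean than the median gene. Jun was at 0.305, and Zfp36, Dusp1, Atf3 and Fos were at 0.2 to 0.263. These values describe 8 libraries that share their groups and were not tested.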

How the data were processed

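The authors deposited TPM values for 55421 Ensembl gene identifiers in 8 libraries. Per the labels' protocols the TruSeq kit does not mark strand, and the submitters' processing notes name CASAVA 1.8.2, STAR and the build mm10. Which annotation and counter were used is not given in the sources. Names and lengths came from GENCODE M21. TPM times exon-union length, scaled per library, came within 0.01 of a whole read for 98.8% to 98.89% of values above 0.

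The filter kept 16699 genes that reached 1 TPM in 2 or more libraries. A limma (3.58.1, R 4.3.3) model of log2(TPM + 1) held 4 group means over all 8 libraries, with an intensity trend, 4 residual and 4.68 prior degrees of freedom, two-sided tests and Benjamini-Hochberg adjustment within a comparison at a threshold of 0.05. The fit was tested on simulated data.

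The 10 genes and all lists were chosen with earlier results of these data known. Named besides the members are Nr6a1, from each list the 4 or fewer genes of smallest p per comparison, and the 5 genes nearest in pattern to Fos and to the members' mean; genes listed by their calls were named after their values were seen. Some genes the rule takes are left out. Markers of endothelial, erythroid, macrophage, heart, visceral endoderm, anterior and posterior cells were summed per library. Alternatives were other pseudocounts, filters, scalings and fits, and leaving out libraries.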

Additional observations from a re-analysis of the deposited data

How the results depend on the processing

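With 1 library left out, the fit called 2 to 6 members in anterior tissue (6 with all libraries) and 0 to 4 in posterior tissue (4), 0 to 1 between regions of the mutant (0) and 0 to 2 between regions of wild type (1); the lone library of a group was assumed to vary like the others. Without both libraries numbered 153, each wild-type group held 1 library. No member was then called for either genotype effect or between wild-type regions. Calls of the anterior genotype effect fell among all genes too, so this loss was not particular to the members. Without both numbered 159, fewer members were called in posterior tissue. With no filter the counts were 3 in anterior tissue, 1 in posterior tissue and 0 between wild-type regions, where more genes were tested. In anterior tissue 2808 of all 33409 genes were called in that fit. Fitting only the groups compared gave 3 and 2 for the genotype effects, while 3897 of all 16699 genes were called in anterior tissue. For the posterior genotype effect, quantile normalization and array weights each gave 2. Between wild-type regions the count was 2 with a filter at 5 TPM, rescaled TPM, array weights or the replicate block, and 0 with no trend. The cause of these shifts was not tested. Over all alternatives the genes called among all tested numbered 478 to 5188 for the anterior (3937 as reported) and 79 to 2485 for the posterior genotype effect (1919), 0 to 210 for their difference (169), 1592 to 3086 between mutant regions (2690) and 429 to 3242 between wild-type regions (2422).

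Among the differences recomputed, signs turned for genes without a call. With 1 library left out, anterior differences ranged over -0.4 to 0.14 for Junb and -0.67 to 0.19 for Klf2, and posterior ones over -0.33 to 0.04 for Junb and -0.46 to 0.02 for Klf2. Without both libraries numbered 159 the anterior differences were 0.14 for Junb and 0.19 for Klf2, and under quantile normalization the posterior difference of Atf3 was -0.0029. Of the differences recomputed, 392 kept direction and side of the threshold, 69 lost and 15 gained a call. In anterior tissue 56.6% of all called genes were higher in the mutant, and 47.3% under quantile normalization. In posterior tissue 74.5% of all called genes were higher in the mutant, 56.3% under median-of-ratios scaling and 53.9% under quantile normalization. Numbers are shared between regions of a genotype, not between genotypes, so the replicate block applied to the region comparisons and to the difference of effects only. Deviations of same-numbered libraries correlated at 0.136 in mutants and 0.0216 in wild type across genes, and the block changed no member's call except that of Atf3 between wild-type regions (adjusted p = 0.037). Depth limits Fosb and, less so, Fos.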
